A study of Mus musculus with 18 samples.

Results

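Expression of 8 genes that encode synaptic adhesion molecules was examined in sorted cortical neurons of mice labelled as Tbr1 null and of wild-type mice. The genes were taken by family and name from the 24015 genes of the deposited count table, with earlier results of these data known. They are the neurexins Nrxn2 and Nrxn3, the neuroligins Nlgn1 and Nlgn3, and the leucine-rich repeat transmembrane neuronal genes Lrrtm1, Lrrtm2, Lrrtm3 and Lrrtm4. All 8 had at least 366 counts in every library and passed the filter on low counts in every comparison. Other members of these families are not reported here.

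RNA was sequenced from tdTomato-positive cells sorted from postnatal day 5 cortex, with about 25000 cells for each of 4 libraries in 3 groups. The groups are wild-type (WT) layer 6, null layer 6, whose genotype label reads Tbr1 Layer 6 Null, and WT layer 5. The series design calls the mutant a constitutive null, and the driver that labels the sorted cells, the exons that the allele lacks and the number of animals per library are not stated in the sources used here. TBR1 belongs to the T-box family of transcription factors and marks deep cortical layers, and the series title asks how its dose after birth bears on the connections of layer 6.

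Neurexins are presynaptic adhesion receptors, and through alternative promoters and splicing each gene gives many isoforms. Across the synaptic cleft they bind neuroligins and LRRTMs, postsynaptic proteins that gather receptors and scaffolds at the contact. Neuroligin 1 is found mainly at excitatory synapses and neuroligin 3 at both excitatory and inhibitory ones, whereas LRRTMs act at excitatory synapses. Lrrtm1 and Lrrtm2 bind neurexins, and Lrrtm4 also binds heparan sulfate proteoglycans.

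Levels are CPM, a gene's counts set to a common library size, with library sizes scaled by the trimmed mean of M-values (TMM). They are not divided by transcript length, so a gene is compared only with itself across groups. Differences were tested with edgeR's quasi-likelihood test, and a gene was called at a Benjamini-Hochberg adjusted p under 0.05 over all genes tested. Tbr1 itself stood at 169, 171, 181 and 182 CPM in WT layer 6, at 91.6, 97.4, 94.4 and 95.5 CPM in null layer 6 and at 45.7, 40.2, 43.1 and 41.5 CPM in WT layer 5. The null libraries were thus all below the WT layer 6 libraries, with a log2 fold change of -0.89 ± 0.0353 (SE). Whether the remaining Tbr1 reads lie in the deleted part cannot be read from gene totals.

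Library totals were 27465597 to 54899002 counts. Libraries resembled each other most in pairs. Chi-square per degree of freedom, computed between the counts of each pair of libraries, ranged from 3.21 to 5.05 within WT layer 6 pairs (replicates 1 with 2 and 3 with 4) against 10.6 to 19.2 across them. The same pairs gave 8.72 to 10.4 against 22.2 to 59.4 in null layer 6, and replicates 1 with 3 and 2 with 4 gave 1.33 to 1.39 against 2.94 to 3.35 in WT layer 5. No label names the animals, so a p-value here refers to the spread among libraries, which may be technical. Xist, the RNA of the inactive X chromosome, was at 0.458 and 0.448 CPM in WT layer 6 replicates 1 and 2, at 289 and 287 CPM in replicates 3 and 4, at 262 to 299 CPM in null layer 6 and at 39.5 to 41.1 CPM in WT layer 5. All layer 6 libraries were sequenced in batch A, layer 5 replicates 1 and 2 in batch B and replicates 3 and 4 in batch C.

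Null layer 6 neurons had more Lrrtm1 and Lrrtm3 RNA and less Lrrtm2 and Lrrtm4 RNA than WT layer 6 neurons, with 1.29- to 1.43-fold differences. The neuroligins also moved in opposite directions by smaller amounts, Nlgn1 upward and Nlgn3 downward. Nrxn3 was slightly higher and Nrxn2 was not called. In all, 4 of the 8 genes rose and 3 fell, against a background of 14.2% of 14588 genes called, 7.31% higher and 6.86% lower. Null and WT libraries did not overlap for 7 of the 8 genes, against 19.9% of all genes tested. The median absolute log2 fold change was 0.285 over the 8 genes and 0.0874 over all genes tested. These libraries are bulk pools, so fewer cells of a type and less RNA per cell cannot be told apart.

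**Figure D1:**
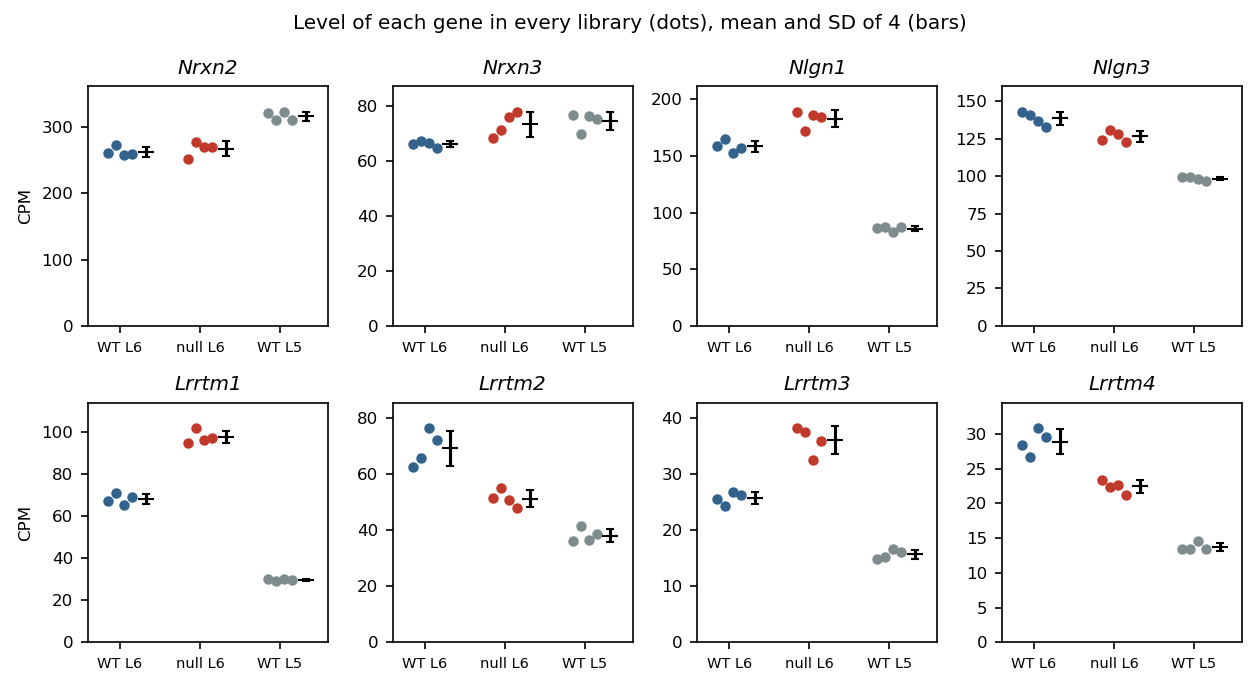
Level of each gene in CPM (linear axis from 0) in every library of WT layer 6, null layer 6 and WT layer 5; bars to the right of the dots give the mean and SD of 4 libraries. Null libraries lie above WT layer 6 libraries for Lrrtm1 and Lrrtm3 and below them for Lrrtm2 and Lrrtm4, and WT layer 5 libraries are the lowest for all LRRTMs and both neuroligins.

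Nrxn2 differed least of the 8 genes. It stood at 261, 273, 257 and 259 CPM in WT layer 6 and at 251, 278, 270.4 and 270.3 CPM in null layer 6. The groups overlap, and the log2 fold change was 0.03 ± 0.0373 with an adjusted p of 0.681 (edgeR). Nrxn3 stood at 66.2, 67.1, 66.7 and 64.6 CPM in WT layer 6 and at 68.2, 71.1, 76.1 and 77.9 CPM in null layer 6. Every null library was above every WT library, the lowest by little, and null replicates 3 and 4 were the highest. Its log2 fold change was 0.15 ± 0.0438 with an adjusted p of 0.0390. That call was lost in 12 of 18 alternative settings, among them scaling by library totals alone (adjusted p = 0.0712) and summing paired libraries (adjusted p = 0.339).

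Among the neuroligins, Nlgn1 was at 159, 165, 153 and 157 CPM in WT layer 6 and at 189, 172, 186 and 184 CPM in null layer 6. All null libraries were higher, and the log2 fold change was 0.20 ± 0.0362 with an adjusted p of 0.00191 (edgeR), or 0.0988 with paired libraries summed. Nlgn3 went the other way, at 143, 141, 137 and 133 CPM in WT and 124, 131, 128 and 123 CPM in null layer 6. The lowest WT and the highest null library are close, and the log2 fold change was -0.14 ± 0.0341 with an adjusted p of 0.0171.

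Nlgn3 is X-linked, and its mean WT level was 142 CPM in replicates 1 and 2, which had almost no Xist. It was 135 CPM in replicates 3 and 4, which had Xist at the level of the null libraries. A higher level in WT replicates 1 and 2 was not particular to the X-linked gene. It was also seen for Nlgn1 (162 and 155 CPM), Nrxn2 (267 and 258 CPM), Nrxn3 and Lrrtm1. Lrrtm2, Lrrtm3 and Lrrtm4 were lower there. Against WT replicates 3 and 4 alone, the log2 fold change of Nlgn3 was -0.10 ± 0.0378 and the call was lost (edgeR adjusted p = 0.134). That fit leaves out WT replicates 1 and 2, so it also has fewer WT libraries. The part of Xist status in the Nlgn3 difference was not tested. Calls for Nlgn3 were also lost when WT replicate 1 (adjusted p = 0.0515) or null replicate 4 (adjusted p = 0.0555) was left out, and with paired libraries summed (adjusted p = 0.259).

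Lrrtm1 had the largest difference of the 8 genes. It was at 67.5, 71.1, 65.4 and 69.1 CPM in WT layer 6 and at 95.1, 102, 96.4 and 97.5 CPM in null layer 6. The groups are far apart relative to their spread, with means of 68.3 ± 2.41 (SD, n = 4) and 97.8 ± 3.04 CPM (n = 4). The 1.43-fold rise corresponds to a log2 fold change of 0.52 ± 0.0371 with an adjusted p of 9.52e-07 (edgeR). Lrrtm3 was at 25.6, 24.4, 26.8 and 26.3 CPM in WT and at 38.2, 37.6, 32.6 and 36.0 CPM in null layer 6. Null replicate 3 was the lowest null library and still above every WT library. Its rise was 1.40-fold, a log2 fold change of 0.48 ± 0.0563 with an adjusted p of 6.74e-05.

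Lrrtm2, a neurexin-binding LRRTM of excitatory synapses, was lower in null layer 6. WT libraries had 62.7, 65.7, 76.5 and 72.2 CPM and null libraries 51.5, 55.1, 50.9 and 47.9 CPM. WT replicates 3 and 4 were above replicates 1 and 2, and all 4 exceeded every null library. The difference was 1.35-fold, a log2 fold change of -0.43 ± 0.0619 with an adjusted p of 0.000358 (edgeR).

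Lrrtm4, which also binds proteoglycans, was at 28.4, 26.6, 30.8 and 29.6 CPM in WT and at 23.4, 22.4, 22.7 and 21.2 CPM in null layer 6. The groups do not overlap, and the difference was 1.29-fold, a log2 fold change of -0.37 ± 0.0555 with an adjusted p of 0.000575 (edgeR).

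Lrrtm1, Lrrtm2 and Lrrtm3 kept their calls in all 18 alternative settings. With paired libraries summed, so that 2 values stood against 2, these were the 3 genes of the 8 still called, beside 3.15% of 15230 genes, at adjusted p of 0.0037, 0.0476 and 0.022, whereas Lrrtm4 missed the threshold (adjusted p = 0.0522). Against WT replicates 3 and 4 alone, 5 of the 8 were called, Nlgn1 and all 4 LRRTMs, beside 10.2% of 14804 genes. These WT replicates are a pair of similar libraries, so that fit holds no spread between WT pairs. The same 5 were called in limma with the pairs as a random block, beside 8.75% of 14588 genes.

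**Figure D2:**
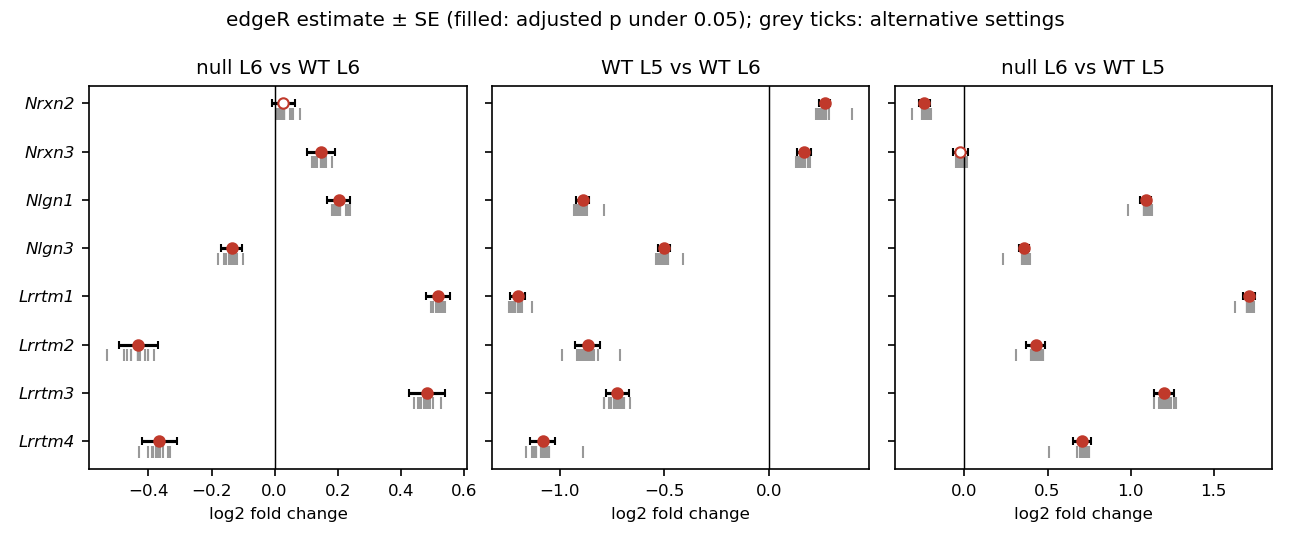
Log2 fold change of each gene in the comparisons of null with WT layer 6, WT layer 5 with WT layer 6 and null layer 6 with WT layer 5. Circles are edgeR estimates with SE (filled where the adjusted p is under 0.05), and grey ticks are the same value under each alternative setting. In the first panel, Lrrtm1 and Lrrtm3 lie near 0.5 and Lrrtm2 and Lrrtm4 near -0.4.

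Ratios of related genes within a library need no scaling between libraries. The log2 ratio of Lrrtm1 to Lrrtm2 counts was -0.02 ± 0.161 (SD, n = 4) in WT layer 6 and 0.93 ± 0.0647 (n = 4) in null layer 6, a difference of 0.95. The Lrrtm3 to Lrrtm4 ratio was -0.16 ± 0.0332 in WT and 0.69 ± 0.111 in null layer 6, a difference of 0.85. These ratios do not overlap between groups. Of the 8 ratios examined, 5 passed an exact two-sided permutation test over libraries, each at the smallest p that 4 against 4 allows (0.0286, adjusted p = 0.0361 over 24 ratios). That test takes the 4 libraries of a group as independent. With the mean of each library pair as 1 value the differences were the same, but 2 against 2 cannot give an exact p below 0.333, so no ratio could pass. The 5 that passed with 4 against 4 were Lrrtm1/Lrrtm2, Lrrtm1/Lrrtm4, Lrrtm2/Lrrtm3, Lrrtm3/Lrrtm4 and Nlgn1/Nlgn3, the last with a difference of 0.34. Each sets a gene that rose without overlap against a gene that fell without overlap. Their passing thus follows from the levels given above and is no separate evidence. The LRRTM ratios also share genes with each other.

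The ratios between genes that moved the same way showed smaller differences. Lrrtm1/Lrrtm3 differed by 0.04 and Lrrtm2/Lrrtm4 by -0.07, with exact permutation adjusted p of 0.657 and 0.358. Nrxn2/Nrxn3 differed by -0.12, with an adjusted p of 0.0686.

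Lrrtm1 went from 35.6% ± 2.18 (SD, n = 4) of all LRRTM counts in WT to 47.1% ± 1.05 in null layer 6. Lrrtm2 went from 36.0% ± 1.88 to 24.7% ± 0.754, Lrrtm3 from 13.4% ± 0.37 to 17.4% ± 0.958 and Lrrtm4 from 15% ± 0.593 to 10.8% ± 0.486. The summed level of the 4 genes was 192 ± 7.31 CPM in WT and 208 ± 6.93 CPM in null layer 6. These shares are of counts and not of molecules, since longer transcripts give more reads.

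**Figure D3:**
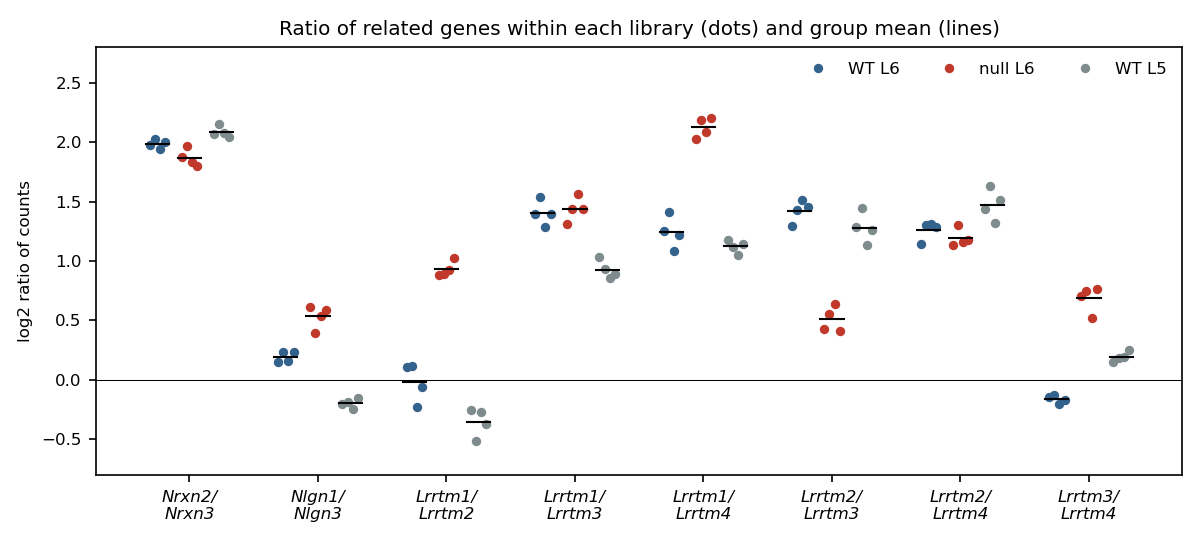
Log2 ratio of the counts of related genes within each library (dots) with the group mean (lines), for WT layer 6, null layer 6 and WT layer 5. Null libraries stand apart from WT layer 6 in the ratios that set Lrrtm1 or Lrrtm3 against Lrrtm2 or Lrrtm4, and overlap with them in Lrrtm1/Lrrtm3 and Lrrtm2/Lrrtm4.

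Lrrtm1, Lrrtm2 and Lrrtm3 lie inside the alpha-catenin genes Ctnna2, Ctnna1 and Ctnna3, by RefSeq's GRCm38.p6 annotation. Whether the authors counted by strand is not stated in the sources used here. Neither host gene that could be tested was called between null and WT layer 6. Ctnna2, host of Lrrtm1, was at 379 ± 10.8 against 368 ± 3.11 CPM (log2 fold change 0.04, edgeR adjusted p = 0.381). Ctnna1, host of Lrrtm2, was at 90.4 ± 5.79 against 88.6 ± 3.12 CPM (0.03, adjusted p = 0.731). Ctnna3 had 0 to 13 counts per layer 6 library, where Lrrtm3 had at least 819.

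RefSeq start sites on GRCm38.p6 were at hand for Nrxn3, Nlgn1, Lrrtm1, Lrrtm3 and Lrrtm4. The 250 bases before the starts of the LRRTMs that rose and, for comparison, before the first start of Lrrtm4, which fell, are shown 5′ to 3′ with CG dinucleotides in capitals.

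Lrrtm1 (chr6:77242227-77242476, plus strand): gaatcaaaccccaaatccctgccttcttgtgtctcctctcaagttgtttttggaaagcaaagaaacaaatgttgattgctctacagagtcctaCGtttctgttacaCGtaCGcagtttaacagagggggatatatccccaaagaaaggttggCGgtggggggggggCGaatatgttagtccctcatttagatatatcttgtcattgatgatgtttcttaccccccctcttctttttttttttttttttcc
Lrrtm3 (chr10:64090256-64090505, minus strand): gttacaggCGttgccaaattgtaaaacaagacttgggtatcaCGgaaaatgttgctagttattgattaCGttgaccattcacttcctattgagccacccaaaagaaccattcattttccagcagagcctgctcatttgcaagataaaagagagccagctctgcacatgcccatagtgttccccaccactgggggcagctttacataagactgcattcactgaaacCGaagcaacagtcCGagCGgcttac
Lrrtm4 (chr6:80018627-80018876, plus strand): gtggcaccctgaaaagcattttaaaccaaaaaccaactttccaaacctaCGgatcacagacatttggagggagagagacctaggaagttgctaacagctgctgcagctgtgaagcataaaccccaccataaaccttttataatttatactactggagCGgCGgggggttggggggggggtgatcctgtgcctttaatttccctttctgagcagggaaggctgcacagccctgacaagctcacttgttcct

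These windows hold 5, 6 and 3 CG dinucleotides, against a median of 6 in 32851 promoter windows of the same length, and have 42.0%, 46.0% and 49.2% G and C against a median of 52.4%. The core of the T-box motif, TCACACC on either strand, occurs in 3.33% of all windows and its shorter form TCACAC, which it contains, in 12.3%. Neither was found in any of the 9 windows of the 5 genes, which says only that these letters are absent there. Binding of TBR1 near the genes was not examined, because the peaks are placed on another build (mm9).

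In WT layer 5, all 4 LRRTMs and both neuroligins were lower than in WT layer 6, and both neurexins were higher. All 8 genes were called, 2 higher and 6 lower, but so were 85.5% of 14927 genes (42.2% higher and 43.4% lower). The libraries of the 2 layers did not overlap for any of the 8, as for 81.3% of all genes. The counts of called and of not overlapping genes are thus near the background. The median absolute log2 fold change was 0.795 over the 8 genes and 0.602 over all genes tested. Layer and sequencing batch cannot be told apart in this comparison.

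Lrrtm1 showed the largest layer difference of the 8, at 30.3, 29.1, 30.2 and 29.9 CPM in layer 5, a log2 fold change of -1.20 against WT layer 6. Lrrtm4 stood at 13.4, 13.4, 14.6 and 13.5 CPM (-1.08). Lrrtm2 stood at 36.1, 41.5, 36.5 and 38.6 CPM (-0.87). All of these are below the lowest layer 6 library of either genotype. Lrrtm3 was at 14.8, 15.3, 16.6 and 16.1 CPM (-0.72), so that the 4 LRRTMs together made 97.5 ± 2.04 CPM in layer 5 (SD, n = 4), against 192 ± 7.31 CPM in WT layer 6.

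Nlgn1 was at 86.3, 87.0, 83.1 and 87.1 CPM in layer 5 (log2 fold change -0.89) and Nlgn3 at 99.3, 99.2, 98.2 and 96.7 CPM (-0.50). Nrxn2 rose to 321, 310.2, 323 and 309.8 CPM (0.26). Nrxn3 was at 76.7, 69.7, 76.3 and 75.1 CPM (0.17). All 8 calls were also made with layer 5 batch B alone and with batch C alone. Each batch holds a library of both layer 5 pairs (replicates 1 with 3 and 2 with 4), and both runs use the same layer 6 libraries. They are therefore no independent evidence.

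Markers of most other cell types differed strongly between the sorted layers, and their part in these differences was not tested. Calls of single markers stand beside 42.2% of all genes tested called higher in layer 5 and 43.4% lower. Summed over 10 astrocyte markers, layer 5 libraries had 5197 to 5215 CPM against 852 to 982 CPM in WT layer 6, and all 10 were called higher. Oligodendrocyte lineage markers summed to 1226 to 1239 against 280.2 to 293 CPM (10 of 10 higher), microglia markers to 268 to 278 against 81.1 to 92.9 CPM (10 of 10 higher) and vascular markers to 670.1 to 687 against 308 to 319.9 CPM (8 of 8 higher). Cortical glutamatergic neuron markers summed to 804 to 837 against 2280.2 to 2520.4 CPM (9 of 10 lower, 1 higher) and interneuron markers to 249 to 258 against 428 to 450.2 CPM (9 of 10 lower). Pan-neuronal markers summed to 6018 to 6056 against 7229.6 to 7546.0 CPM, but the 8 genes were split (3 higher, 4 lower, 1 not called). Dividing progenitor markers summed to 322 to 339 against 393 to 400 CPM, and these 8 genes were also split (3 higher, 3 lower, 2 not called). No marker was at 0 in all libraries of a group.

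Between null and WT layer 6 these sums differed less than between the layers. Here the calls of single markers stand beside 7.31% of all genes tested called higher and 6.86% lower. Astrocyte markers summed to 1031 to 1102 CPM in null layer 6 (5 of 10 higher, 1 lower) and glutamatergic neuron markers, which include Tbr1, to 2056 to 2207 CPM (1 of 10 higher, 5 lower). Interneuron markers summed to 402 to 413 CPM (1 of 10 higher, 4 lower), oligodendrocyte lineage markers to 269 to 284 CPM (2 of 9 tested higher, 5 lower, and Mog under 10 counts in each library) and microglia markers to 78.7 to 84.1 CPM (0 of 10 called by edgeR). Vascular markers summed to 287 to 293 CPM, below the WT range (2 of 8 lower, Cldn5 at -0.21 and Cdh5 at -0.23 on the log2 scale). Pan-neuronal markers summed to 7458 to 7633 CPM (2 of 8 higher, Syt1 by 0.14 and the neurofilament gene Nefl by 1.52). Dividing progenitor markers summed to 427 to 441 CPM against 393 to 400 CPM in WT (3 of 8 higher). Their part in the LRRTM and neuroligin differences was not tested.

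Set in order over the 3 groups, Lrrtm1, Lrrtm3 and Nlgn1 were highest in null layer 6, then in WT layer 6, then in WT layer 5. Lrrtm2, Lrrtm4 and Nlgn3 were highest in WT layer 6, with null layer 6 between the WT layers. For these 6 genes no neighbouring groups overlapped. Layer 5 also differed from both layer 6 groups in sequencing batch. Nrxn2 was highest in layer 5, and its layer 6 groups did not differ beyond their spread. Nrxn3 was lowest in WT layer 6, and null layer 6 and layer 5 were at 73.3 ± 4.44 and 74.5 ± 3.25 CPM (SD, n = 4 each), a difference within their spread.

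Null layer 6 and WT layer 5 were also compared directly, where 84.3% of 15013 genes were called (42.4% higher and 41.8% lower) and 79.9% did not overlap. Of the 8 genes, 6 were higher and 1 lower in null layer 6, and 7 did not overlap. The median absolute log2 fold change was 0.568 over the 8 genes and 0.599 over all genes tested. Lrrtm1 was 3.27-fold higher (log2 fold change 1.71), Lrrtm3 and Nlgn1 followed at 1.20 and 1.09, and Lrrtm4, Lrrtm2 and Nlgn3 were at 0.71, 0.43 and 0.36. Nrxn2 was lower (-0.24) and Nrxn3 was not called (-0.02, edgeR adjusted p = 0.632). This comparison shares its libraries with the other comparisons and is no independent evidence. Genotype, layer and sequencing batch differ together in it and cannot be told apart. The ratio of Lrrtm1 to Lrrtm2 was -0.35 ± 0.119 in layer 5 (SD, n = 4), on the far side of WT layer 6 from the null. In all, 6 of 8 ratios passed the exact permutation test between the WT layers and 8 of 8 between null layer 6 and layer 5. No share over ratios of other genes was computed. Since 81.3% and 79.9% of all genes did not overlap in these 2 comparisons, the counts are not read as a trait of these families.

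Partners of these adhesion systems were examined as lists. Their counts stand beside 7.31% of all genes higher and 6.86% lower between null and WT layer 6, and 42.2% higher and 43.4% lower between WT layer 5 and WT layer 6. The neurexin ligands and modulators hold neurexophilins, cerebellins, calsyntenins, C1q-like proteins and others, many of which bind neurexins or neuroligins. Of 18 tested between null and WT layer 6, 0 rose and 2 fell: Clstn2, a calsyntenin gene, at 141 ± 3.68 against 182 ± 9.87 CPM (log2 fold change -0.36), and Cbln1, a cerebellin gene named after its value was seen, at -0.31. Of these, Clstn2 was still called with paired libraries summed and Cbln1 was not. Clstn1, another calsyntenin gene, was at 659.8 ± 22 against 663 ± 26.7 CPM, and Dag1, which encodes the neurexin-binding dystroglycan, at 177 ± 3.73 against 183 ± 13.6 CPM, and neither was called. The median log2 fold change was -0.008, beside 0.0003 over all genes tested. In layer 5, 11 of 19 were lower and 4 higher than in WT layer 6, with Cbln4, a cerebellin gene, at 0.920 ± 0.29 against 6.95 ± 0.397 CPM.

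LAR-type receptor phosphatases are a presynaptic adhesion family parallel to neurexins, with members of the SLITRK, SALM and NGL families and TrkC among their partners. The list takes these families by name, so not every gene in it need encode a partner. Of these 20 genes, 6 rose and 1 fell in null layer 6, with a median log2 fold change of 0.077. Slitrk6 had the largest rise at a low level, 2.58 ± 0.297 against 1.06 ± 0.413 CPM (log2 fold change 1.26), and Lrrc4, which encodes an NGL protein, fell by 0.16 on the log2 scale. The receptor genes Ptprs (1156 ± 29.6 against 1098 ± 12.4 CPM) and Ptprf (264 ± 10.5 against 248 ± 5.94 CPM) and the NGL gene Lrrc4b (335 ± 15.2 against 345 ± 3.33 CPM) were not called. Beside 3.15% of all genes tested, 3 of the 20 were called higher and 0 lower with paired libraries summed. These were Ntrk3, Slitrk3 and Slitrk5, named for that count, at 0.27, 0.38 and 0.53 in the fit of 4 against 4, and the call for Slitrk6 was lost. In layer 5, 15 of the 20 were lower and 3 higher, where 85.5% of all genes were called, with Slitrk1 at 27.8 ± 1.54 against 82.2 ± 2.66 CPM (-1.57).

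Latrophilins bind FLRT and teneurin proteins across the synapse, and of these 10 genes 6 rose and 1 fell in null layer 6, with a median log2 fold change of 0.200. Flrt3 was 2.04-fold higher, at 164 ± 29.9 against 80.2 ± 1.88 CPM (1.03 ± 0.0976). The teneurin genes Tenm2 and Tenm3 rose by 0.42 and 0.34 on the log2 scale, from 343 ± 13.2 to 458 ± 28.6 CPM and from 409 ± 21.9 to 519 ± 36.0 CPM. The others that rose were Lphn2, Lphn3 and Tenm4, at 0.15, 0.26 and 0.25 and named after their values were seen, and Tenm1 fell by 0.18. Lphn1 was at 680.1 ± 14.2 against 705 ± 39.0 CPM and was not called. With paired libraries summed, Flrt3 and Tenm2 were still called, 2 of 10 beside 3.15% of all genes tested. In layer 5, 6 of the 10 were lower and 3 higher, Flrt3 at -1.77.

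Intracellular partners are the scaffolds and trafficking proteins that bind neurexin or neuroligin tails. In null layer 6, 2 of 18 rose and 0 fell, no larger a share than the 14.2% of all genes called, with a median of -0.019. They were Dlg2, which encodes the scaffold PSD-93, at 304 ± 14.0 against 280.2 ± 5.12 CPM (0.12, edgeR adjusted p = 0.0498), and Lin7a at 29.5 ± 1.62 against 25.5 ± 1.61 CPM (0.21, adjusted p = 0.0291). Neither was called with paired libraries summed. Dlg4, which encodes the scaffold PSD-95, was at 258 ± 2.59 against 244 ± 3.5 CPM and was not called (adjusted p = 0.0852). In layer 5, 12 of 18 were higher and 3 lower, with Dlg4 at 614 ± 14.4 CPM (1.33) and Lin7b at 2 on the log2 scale, whereas the neuroligins and LRRTMs were lower there.

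Splicing of neurexin transcripts is set by RNA-binding proteins, and of 12 such genes 1 rose and 2 fell in null layer 6, with a median of 0.029. Nova1, a neuronal splicing factor gene, was 1.80-fold higher, at 38.2 ± 1.02 against 21.3 ± 0.779 CPM (0.85 ± 0.0457). Rbfox1 was at 153 ± 14.3 against 213 ± 8.73 CPM (-0.47), and Celf4, named after its value was seen, at -0.13. Rbfox2, Khdrbs3, which encodes the neurexin splicing regulator SLM2, and Ptbp2 were not called, at log2 fold changes of 0.01, 0.09 and 0.07. Nova1 and Rbfox1 kept their calls with paired libraries summed. In layer 5, 7 of 12 were lower and 3 higher, with Nova2 at 168 ± 7.55 against 47.0 ± 1.40 CPM. Gene totals do not show which neurexin isoforms were made.

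**Figure D4:**
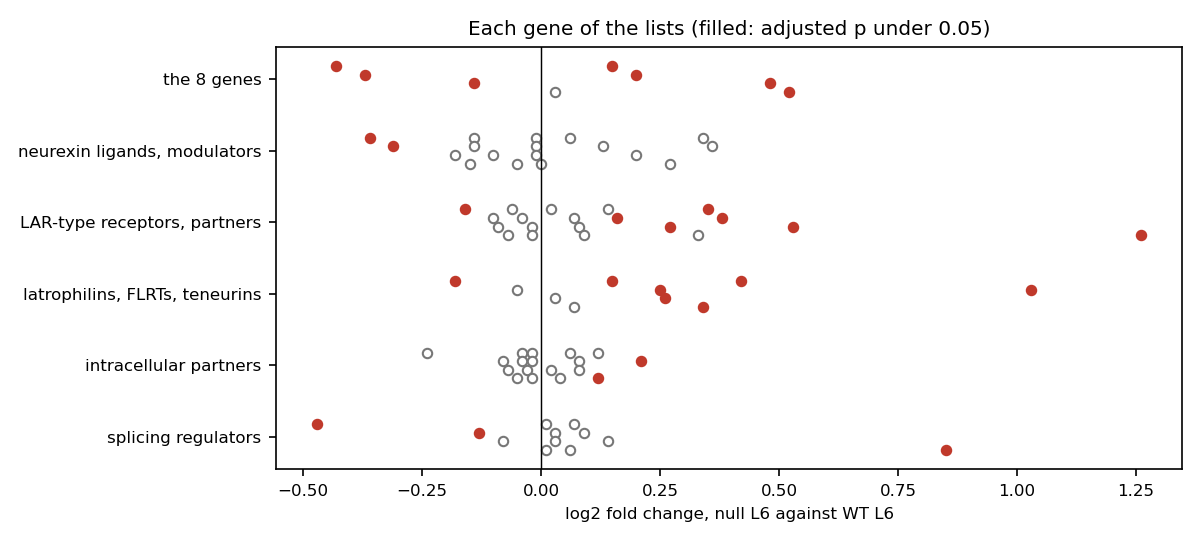
Log2 fold change between null and WT layer 6 of the 8 genes and of each tested gene of 5 partner lists (filled circles: edgeR adjusted p under 0.05; open circles: not called; vertical offsets only separate points). Filled points to the right number 4 for the 8 genes, 0 for neurexin ligands and modulators, 6 for LAR-type receptors and partners, 6 for latrophilins, FLRTs and teneurins, 2 for intracellular partners and 1 for splicing regulators.

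For each of the 8 genes, the genes with the most similar profile were found over the 12 libraries among 11520 genes with a mean of at least 5 CPM. Because the libraries form 3 groups, this likeness mostly ranks the group means, and it is given as a description. Lrrtm1 was most like Fezf2 (Pearson r = 0.9987 of log2 CPM), a transcription factor gene of subcerebral projection neurons, which was at 66.1 ± 3.02 CPM in WT layer 6, 114 ± 3.47 CPM in null layer 6 and 18.5 ± 0.636 CPM in layer 5. Lrrtm2 was most like Foxp2 (0.9873), a transcription factor gene of layer 6 neurons, at 25.5 ± 2.56, 17.5 ± 0.451 and 12.3 ± 0.457 CPM in the same order. Lrrtm3 was most like the ephrin receptor gene Epha7 (0.9945), at 122 ± 8.39, 216 ± 25.7 and 49.2 ± 0.502 CPM. The second in rank were Tox3 (0.9976) for Lrrtm1, Pdgfc (0.9843) for Lrrtm2 and Atp2b1 (0.9944) for Lrrtm3.

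Lrrtm4 was most like the TGF-beta receptor gene Tgfbr1 (0.9955) and Neto2 (0.9927), an auxiliary subunit gene of kainate receptors. Nlgn1 was most like the pentraxin gene Ptx3 (0.9972) and the transcription factor gene Atf4 (0.9969), and Nlgn3 like Nyap1 (0.9932) and Ube2ql1 (0.9925). Nrxn2 was most like Rai1 (0.9924) and Coro7 (0.9867), and Nrxn3, whose groups lie closest together, like Cenpi (0.9108) and Vcp (0.8992).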

How the data were processed

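The authors deposited whole-number gene counts for 12 libraries. Per the submitters' processing notes, STAR 2.5.2b, HTSeq and bedtools were used with the build mm9; the strand setting of the counting is not stated in the sources used here. Totals were taken over all 24015 genes, and every sample column matched a label. A second deposited table of rounded scores for 14567 genes, whose scaling is not given, was used only as an alternative, as log2(score + 1). Peak lists were not used here.

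Counts were tested with edgeR 4.0.16 (R 4.3.3): genes were filtered with filterByExpr, libraries scaled by TMM, and each pair of groups fitted alone with the quasi-likelihood test, called at a Benjamini-Hochberg adjusted p under 0.05. The script was tested on simulated data. Levels use 1 TMM scaling of all 12 libraries. Ratios add 0.5 to counts and use exact permutation tests in SciPy 1.17.1. Alternatives were size-factor or library-total scaling, DESeq2 1.42.0, no filter, all groups in 1 fit, a replicate block, paired libraries summed or as a random block in limma 3.58.1, WT layer 6 replicates 3 and 4 only, single layer 5 batches and leaving out each library. The 8 genes, the 6 partner lists and the 8 marker lists were chosen with earlier results of these data known.

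Besides the 8 genes, Tbr1 and the LRRTM host genes, the text names from each partner list the 3 genes with the highest mean CPM and, per comparison and direction, the called gene with the largest fold change, and for each of the 8 genes the 2 most correlated ones. From the genes so given, some were left out for brevity. Totals were 27465597 to 54899002 counts per library, and the SDs and SEs cover the spread between libraries only.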

Additional observations from a re-analysis of the deposited data

Results flagged for a closer look

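Over the 8 genes and 8 ratios in 3 groups, 48 sets of 4 libraries were screened for a library far from the others, and chance gives about 1 in 20. In WT layer 5, replicate 3 had Lrrtm4 at 14.6 CPM, with the other libraries at 13.4 to 13.5 CPM. In WT layer 6, replicate 1 had a log2 ratio of Lrrtm2 to Lrrtm4 of 1.14, with the others at 1.29 to 1.31. Both gaps were above Dixon's 95% critical value, and 2 such sets of 48 are about what chance gives.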

How the results depend on the processing

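With paired libraries summed, calls between null and WT layer 6 fell from 2068 to 479 (249 higher, 230 lower) and those among the 8 genes from 7 to 3 (2 higher, 1 lower). The fit then compares 2 values with 2. With pairs as a random block in limma, 1277 genes were called (688 higher, 589 lower), 5 of the 8 among them. Same-numbered libraries did not deviate together (correlations of -0.159 to 0.0124). These correlations alone cannot settle whether same-numbered libraries share a preparation. With the replicate block, 1526 genes and 6 of the 8 were called, without Nrxn3. Between the WT layers, and between null layer 6 and WT layer 5, all calls of the 8 genes were kept in every alternative run. The small Nrxn3 difference between null layer 6 and layer 5 (-0.02, not called) turned positive without the filter on low counts (0.0119), with paired libraries summed (0.00203), with layer 5 batch B alone (0.00495) and without null replicate 1. Leaving out 1 library at a time gave -0.0529 to 0.0182. The Lrrtm1/Lrrtm3 difference between null and WT layer 6 (0.04, not called) turned negative without WT replicate 3 (-0.00361) or null replicate 3 (-0.006), in a range over left-out libraries of -0.006 to 0.0807. Leaving out any 1 library brought the ratios past the threshold to 0 in all 3 comparisons, because 3 against 4 cannot give an exact p below 0.0571. Calls in the partner lists were also counted, chosen after seeing the data, with paired libraries summed, with the pairs as a random block and against WT layer 6 replicates 3 and 4 only. The random block left 5 LAR-type genes higher and 0 lower (Lrfn5 and Lrrc4 lost), 5 latrophilin, FLRT and teneurin genes higher and 1 lower, and 0 intracellular partners. Against replicates 3 and 4 only, these lists had 5 higher and 1 lower, 5 higher and 0 lower, and 1 higher and 1 lower; the last were Magi1 and Sdcbp in place of Dlg2 and Lin7a. Nova1 and Rbfox1 were called in all 3 settings. Over all genes tested, 3.15% were called with paired libraries summed, 8.75% with the random block and 10.2% against replicates 3 and 4 only. The 8 genes had at least 366 counts in every library; how far depth and the number of libraries each limit the tests was not compared.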

Other observations

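In the authors' second deposited table, values are rounded scores on a scale that is not stated in the sources used here. The log2 fold changes of the 8 genes between null and WT layer 6 had the same sign there as in the counts, with Lrrtm1 at 0.503 and Lrrtm3 at 0.473 and with Lrrtm2 at -0.401 and Lrrtm4 at -0.375. Nrxn2 was at 0.0801 ± 0.101 (SE), the widest error of the 8.

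Rn45s, a ribosomal RNA gene, ranged from 3753 to 7178 CPM in WT layer 6, from 5899 to 26956 CPM in null layer 6 and from 12293 to 12670 CPM in WT layer 5.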
